A study of Mus musculus with 24 samples.

Results

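Arginine is used by enzymes that compete for it. The genes described here are Nos2, which encodes inducible nitric oxide synthase (iNOS), Ass1 (argininosuccinate synthase) and Odc1 (ornithine decarboxylase). Also described are Slc7a1 and Slc7a2, which encode carriers of arginine across the plasma membrane, and Ddah1 and Ddah2. Ddah1 encodes an enzyme that breaks down methylated arginine, and Ddah2 a related protein. All 7 genes are among the 12091 genes of the table. They were chosen by their place in arginine metabolism after results in treated 4T1 tumors had been seen, so the choice of pathway was made on these same samples.

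The samples come from a study of pleiotrophin (PTN, gene Ptn), a secreted growth factor, in mouse models of metastatic breast cancer, in which PTN was blocked by antibody or lowered by RNA interference. Bulk RNA was sequenced from 24 samples in 4 experiments, each with 3 control and 3 PTN-inhibited samples. In a pair of experiments the samples are primary mammary tumors: 4T1 tumors, grown from a BALB/c mammary carcinoma line placed in the mammary fat pad of 8-week-old female BALB/c mice, and spontaneous tumors of FVB/N mice carrying the MMTV-PyMT oncogene, treated from 8 weeks of age. Mice received 15 mg/kg of either 3B10, a monoclonal antibody that neutralizes PTN, or C44, a mouse IgG control, on 2 days per week.

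The other experiments use cultured cells without hosts: E0771, a C57BL/6 mammary carcinoma line that metastasizes poorly, and E0771-LG, a line derived from a lung metastasis of E0771. Each line carries either a short hairpin RNA against Ptn (shPTN) or a control hairpin against EGFP (shCtrl), kept under puromycin at 3 µg/ml for 6 weeks. The shPTN and shCtrl populations were selected separately, and there is only 1 Ptn construct. An effect of losing Ptn therefore cannot be told apart from an effect of the construct or from a difference between populations. The groups are described as 3 biological replicates, but whether the cultures were kept apart is not stated, and p-values measure only the spread between these samples.

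iNOS makes nitric oxide and citrulline from arginine, and Ass1 starts the reactions that turn citrulline back into arginine. Arginine also gives ornithine, which feeds polyamines through Odc1 and proline through ornithine aminotransferase. In mouse macrophages iNOS is induced by interferon-gamma and bacterial products, and cells that drain arginine can limit T cells.

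The table holds log2 values. In 18 samples (MMTV-PyMT, E0771 and E0771-LG) they are log2 CPM (reads per M reads on the listed genes, where M is the SI mega), and undoing the scale gives whole reads, to within 0.01 reads, for 100% of values. Reads per sample on these genes are 19.18, 19.25 and 18.76 M in MMTV-PyMT C44 tumors and 16.29, 18.44 and 16.26 M in 3B10 tumors, so every C44 library is larger than every 3B10 library. In cells they are 17.25, 20.42 and 16.61 M (E0771 shCtrl), 19.32, 18.05 and 15.63 M (E0771 shPTN), 17.3, 19.59 and 18.6 M (E0771-LG shCtrl) and 21.12, 18.05 and 17.43 M (E0771-LG shPTN). A gene at 0 reads in a sample could by counting error alone be present at up to 3 reads, which is 0.142 to 0.192 CPM in these libraries. That floor covers counting error only.

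The 6 samples of 4T1 tumors are on another scale. Their values do not give whole reads, and they run lower for long genes: against E0771-LG cells the 4T1 values shift by −0.693 per doubling of gene length across 9789 genes, while MMTV-PyMT and E0771 values shift by 0.119 and 0.153. The depth of the 4T1 libraries is unknown. 4T1 values are therefore described sample by sample, and the levels of arginine genes in 4T1 tumors are not set against their levels elsewhere. limma, run on the 6 tumors with the 7 arginine genes included, called 0 of 11467 genes at adjusted p < 0.05 (719 at unadjusted p < 0.05). In 4T1 tumors a difference is named lower or higher only where the 3 treated and 3 control values do not overlap.

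The first check is Ptn itself (ENSMUSG00000029838, chr6:36714929-36810220, minus strand, GRCm38). In E0771 cells Ptn is at 2.90, 2.18 and 2.28 log2 CPM with shCtrl and −0.63, 0.25 and 0.53 with shPTN (80 to 128 against 12 to 22 reads). In E0771-LG cells it is at 3.65, 4.51 and 3.74 against 1.42, 0.98 and 1.38 (216 to 446 against 35 to 56 reads). All 3 shPTN samples lie below all 3 shCtrl samples in both lines. Ptn fell by 2.40 log2 units in E0771 (SE 0.369, adjusted p 0.00159) and by 2.71 in E0771-LG (SE 0.275, adjusted p 6.3e-05), to 18.9% and 15.3% of control. The knockdown therefore worked in each line, by a similar amount: the difference between lines in the Ptn effect is −0.30 (adjusted p 0.651). Control E0771-LG cells hold 2.86 times as much Ptn RNA as control E0771 cells (log2 1.51, SE 0.342, adjusted p 0.00153).

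The antibody binds the protein and was not meant to lower the RNA. In MMTV-PyMT tumors Ptn is at 2.80, 2.73 and 3.42 log2 CPM with C44 and 3.28, 2.95 and 4.22 with 3B10 (0.50, adjusted p 1). In 4T1 tumors Ptn lies below the filter, with means of −0.32 ± 0.29 (SD, n = 3) and 0.16 ± 0.83. The RNA of the target is thus not a measure of treatment in tumors. How abundant it is in 4T1 tumors cannot be read from a scale that is not known.

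Across all genes, E0771 knockdown changed 2140 of 10394 tested genes at adjusted p < 0.05 (20.6%), 1216 lower (11.7%) and 924 higher (8.89%). That count runs from 1171 to 2166 with 1 sample left out, and it is 905 in 1 fit over all 24 samples. E0771-LG knockdown changed 4826 of 10405 (46.4%), 2295 lower (22.1%) and 2531 higher (24.3%). The balance of lower and higher depends on scaling: with median-of-ratios scaling it is 1071 and 1045 in E0771 and 2461 and 2353 in E0771-LG. Of the arginine genes, 2 of 5 tested were called in E0771, both higher (Ass1, Ddah1), and 3 of 5 in E0771-LG, all lower (Odc1, Slc7a1, Ddah1). The genes called in E0771 cells were thus raised and those called in E0771-LG cells were lowered, with Ddah1 moving in opposite directions. In E0771-LG, nearly every other tested gene is called, so a call there sets a gene apart less than a call in E0771. Slc7a2 was below the filter in both lines, Nos2 in E0771 and Ddah2 in E0771-LG.

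In MMTV-PyMT tumors limma called 0 of 11361 genes (0%) at adjusted p < 0.05, with 307 at unadjusted p < 0.05. No arginine gene was called there, and adjusted p is 1 for all 7. By position alone, 258 genes (2.27%) have all 3B10 samples below all C44 samples and 689 (6.06%) have them above, and Ddah1 is the one arginine gene among them, lower. In 4T1 tumors 507 of 11467 genes (4.42%) lie apart in the lower direction and 788 (6.87%) in the higher. Of the 7 arginine genes in 4T1 tumors, Ddah2 is apart and higher, and the others overlap. With 3 samples per group such separation is frequent among all genes, and it carries no p-value.

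**Figure D1:**
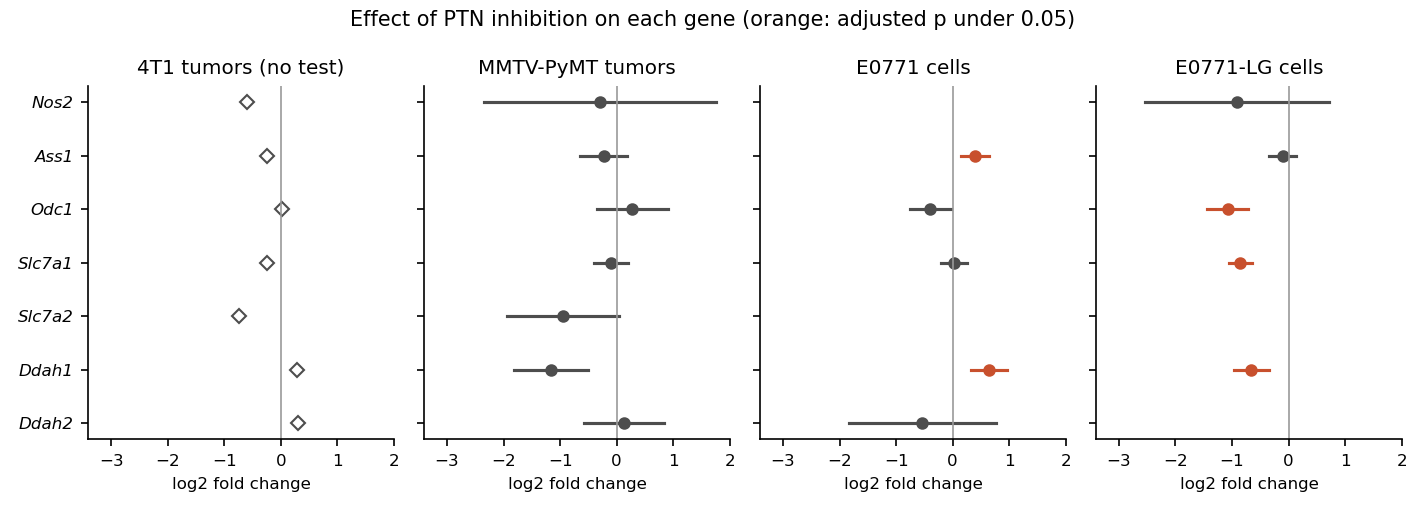
Difference with PTN inhibition (log2) for the 7 arginine genes in each experiment. Circles with bars are limma estimates with 95% confidence intervals; orange marks adjusted p < 0.05. Diamonds in 4T1 tumors are differences of means, drawn without intervals. Genes below the filter of an experiment are absent.

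The plot of differences by experiment shows how the estimates spread. In both tumor models Nos2, Slc7a2, Ass1 and Slc7a1 have negative estimates and Odc1 and Ddah2 positive ones, while Ddah1 differs in sign (0.29 in 4T1, −1.16 in MMTV-PyMT). The median over the 7 genes is −0.24 in 4T1 tumors against 0.01 for all genes, and −0.23 in MMTV-PyMT tumors against 0.05. In cells the median of tested members is 0.02 in E0771 (all genes −0.03) and −0.85 in E0771-LG (all genes 0.05). All 5 tested genes have estimates below 0 in E0771-LG, against 2 of 5 in E0771, 4 of 7 in 4T1 and 5 of 7 in MMTV-PyMT tumors. These are counts of signs and were not tested, and some signs turn when 1 sample is left out. In 4T1 tumors Ass1 turns to 0.05 (without 3B10 replicate 3) and Odc1 to −0.02 and −0.04 (without 3B10 replicates 2 and 3) and −0.13 (without C44 replicate 3). Ddah1 there does not turn but shrinks to 0.01 (without 3B10 replicate 2) and 0.03 (without C44 replicate 3). In MMTV-PyMT tumors Nos2 turns to 0.74 (without 3B10 replicate 3) and Ddah2 to −0.07 and −0.15 (without 3B10 replicate 1 and C44 replicate 3). In E0771, Slc7a1 turns to −0.09 and Ddah2 to 0.03, each without shPTN replicate 2.

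**Figure D2:**
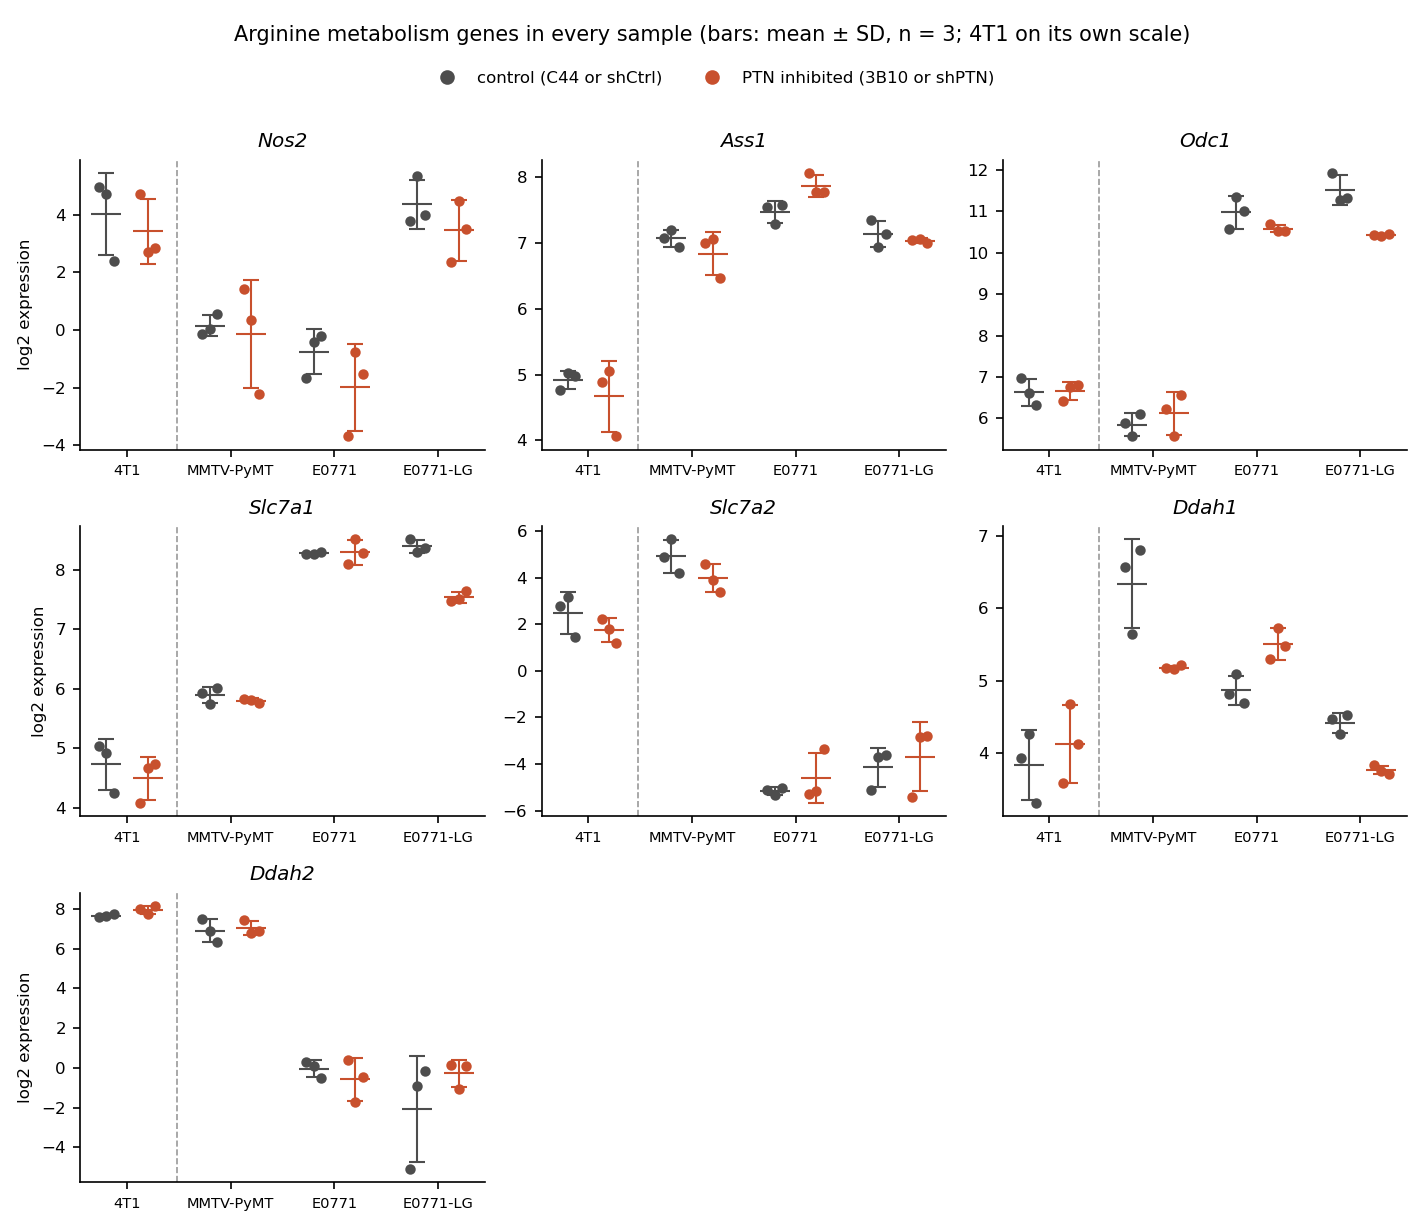
Level of each arginine gene in every sample (log2). Bars are means ± SD of 3 samples. The dashed line separates 4T1 tumors, which are on another scale, from the log2 CPM samples.

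Nos2 (ENSMUSG00000020826, chr11:78920787-78960254, plus strand) encodes iNOS. The panels of single samples show it as the most scattered of the 7 genes within the 4T1 groups. In 4T1 tumors it reads 4.96, 4.72 and 2.39 with C44 and 4.72, 2.69 and 2.85 with 3B10. Each group contains high and low tumors, the groups overlap, and the means are 4.02 ± 1.42 and 3.42 ± 1.13 (difference −0.60). In MMTV-PyMT tumors Nos2 is low, at −0.13, 0.02 and 0.55 against 1.42, 0.35 and −2.22 log2 CPM (17 to 27 and 3 to 43 reads). Only 3B10 replicate 3 is at the floor of 3 reads. The MMTV-PyMT difference is −0.30 (95% confidence interval −2.35 to 1.76, adjusted p 1). Leaving out single 4T1 tumors moves the 4T1 difference between −1.42 and −0.13. Nos2 is therefore not shown to shift with 3B10 in either tumor model, and the interval in MMTV-PyMT is wide enough to hold a large change either way.

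In cells, Nos2 separates the lines more than any other arginine gene does. E0771 shCtrl samples have 5 to 15 Nos2 reads (−1.65, −0.40 and −0.20 log2 CPM), while E0771-LG shCtrl samples have 237 to 788 (3.78, 5.33 and 3.97). Each E0771-LG control sample is far above each E0771 control sample. The difference between control lines is 5.11 (SE 0.753), and over every alternative analysis it runs from 3.75 to 5.40. Nos2 is below the filter in E0771 and entered this comparison through E0771-LG, where it is high. The size of the difference thus depends on values near the floor, and its p-value is not used as support. By its reads in these samples, Nos2 RNA is present in cultured E0771-LG controls and near the floor in E0771 controls.

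With shPTN, Nos2 in E0771-LG reads 2.36, 4.48 and 3.51 (108 to 401 reads). The groups overlap, and the difference is −0.91 (SE 0.659, 95% confidence interval −2.54 to 0.72, adjusted p 0.302). Over the alternatives it runs from −1.42 to −0.37. With replicate as a block in limma Nos2 is called (−0.91, adjusted p 0.0032), but the values do not establish that samples of the same number belong together. Within E0771 the shPTN samples have 1 to 10 reads and Nos2 was below the filter. Whether Ptn knockdown changes Nos2 is therefore not settled in either line. The difference between lines in the knockdown effect is 0.33 (SE 1.065, adjusted p 0.829). Nos2 entered that fit through E0771-LG and has few reads in E0771, so this estimate and its p-value are not used as support.

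The comparison between control lines needs a caution on scale. The median of all genes in E0771-LG shCtrl against E0771 shCtrl is −0.15 rather than 0, while median-of-ratios scaling puts it at 0.01. Of 10576 genes, 6131 (58%) were called between the lines, 3955 lower (37.4%) and 2176 higher (20.6%), against 2969 and 3078 with median-of-ratios scaling and 2822 and 2940 with quantile normalization. The excess of lower genes thus depends on scaling. Among arginine genes 4 of 6 were called: Nos2 (5.11) and Odc1 (0.54) higher, and Ass1 (−0.33) and Ddah1 (−0.44) lower. With median-of-ratios scaling Nos2 is at 5.27 and Odc1 at 0.70 (adjusted p 0.00619). Ass1 (−0.17, 0.242) and Ddah1 (−0.28, 0.105) lose their calls there, and Slc7a1 gains one (0.28, 0.0396, from 0.12 and 0.332). Odc1 keeps its call in 17 of 22 alternatives, its groups overlap (11.28 against 11.35), and it drops to 0.33 (adjusted p 0.0922) without 1 E0771-LG control. The differences of Odc1, Ass1, Ddah1 and Slc7a1 are therefore not firm. Nos2 is called in every alternative, but it passed the filter only through the line where it is high. Its calls are therefore not used as support, and only its reads in single samples describe it.

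The promoters of 4 arginine genes that were called in cells are given here, because they are the starts of the genes whose RNA changed with knockdown: Odc1, Slc7a1 and Ddah1 in E0771-LG, and Ass1 and Ddah1 in E0771. The sequences are from RefSeq (GRCm38.p6), on the coding strand, from 250 bases before to 50 bases after the annotated start: Ass1 chr2:31470020-31470319 (plus), Odc1 chr12:17544623-17544922 (plus), Slc7a1 chr5:148399855-148400154 (minus, the outermost of 2 starts) and Ddah1 chr3:145758442-145758741 (plus). Capitals mark matches on either strand to the motifs searched: E-box CACGTG, C/EBP TTGCNNAA, C/EBP-ATF TGATGNAA, CRE TGACGTCA, GAS TTCNNNGAA, the kappa-B consensus, TATAAA, GC box GGGCGG and CCAAT. Matches on the minus strand appear as CCGCCC or ATTGG.
Ass1 promoter: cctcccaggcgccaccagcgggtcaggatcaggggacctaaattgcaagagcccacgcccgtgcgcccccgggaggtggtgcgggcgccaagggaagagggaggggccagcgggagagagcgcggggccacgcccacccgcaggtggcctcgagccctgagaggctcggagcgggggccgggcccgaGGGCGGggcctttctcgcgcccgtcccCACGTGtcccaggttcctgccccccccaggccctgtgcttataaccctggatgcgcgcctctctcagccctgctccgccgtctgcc
Odc1 promoter: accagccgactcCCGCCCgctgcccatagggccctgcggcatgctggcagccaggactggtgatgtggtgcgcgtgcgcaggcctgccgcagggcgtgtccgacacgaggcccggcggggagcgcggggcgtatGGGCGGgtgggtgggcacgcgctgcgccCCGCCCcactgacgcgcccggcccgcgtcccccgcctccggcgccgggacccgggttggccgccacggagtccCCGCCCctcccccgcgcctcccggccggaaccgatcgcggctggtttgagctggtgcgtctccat
Slc7a1 promoter: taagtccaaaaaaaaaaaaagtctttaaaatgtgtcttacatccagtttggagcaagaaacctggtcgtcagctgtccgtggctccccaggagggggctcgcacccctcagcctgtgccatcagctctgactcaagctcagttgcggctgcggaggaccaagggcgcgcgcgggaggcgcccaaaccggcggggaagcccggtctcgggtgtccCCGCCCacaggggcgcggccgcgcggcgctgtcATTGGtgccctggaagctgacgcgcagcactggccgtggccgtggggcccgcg
Ddah1 promoter: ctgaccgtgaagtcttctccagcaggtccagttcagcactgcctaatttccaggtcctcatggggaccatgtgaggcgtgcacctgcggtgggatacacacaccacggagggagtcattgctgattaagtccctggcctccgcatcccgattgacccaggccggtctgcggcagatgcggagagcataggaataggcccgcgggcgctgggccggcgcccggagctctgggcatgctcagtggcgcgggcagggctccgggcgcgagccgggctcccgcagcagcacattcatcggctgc

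These promoters are rich in G and C: 74% in Ass1, 78% in Odc1, 65% in Slc7a1 and 65.7% in Ddah1, against a median of 52.7% over 32851 mouse promoters. Ass1 has an E-box beginning at −36 and a GC box at −63, counted from the start. Odc1 has GC boxes at −238, −116, −88 and −15, and Slc7a1 has a GC box at −36 and a CCAAT box on the minus strand at −3. Ddah1 has no match to any motif searched. GC boxes occur in 35.7% of all promoters, CCAAT in 37.4% and the E-box in 7.15%. None of the 4 promoters holds a C/EBP-ATF (3.97% of promoters), C/EBP (10.8%), CRE (1.79%), GAS (8.3%), kappa-B (8.46%) or TATA (13.6%) match within these 300 bases. The promoters of Nos2 and Slc7a2 were not in the reference and are not analysed here.

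Ass1 (ENSMUSG00000076441, chr2:31470207-31520672, plus strand) makes argininosuccinate from citrulline. In E0771 it reads 7.55, 7.28 and 7.58 log2 CPM with shCtrl and 8.06, 7.77 and 7.77 with shPTN (3173 to 3224 against 3409 to 5164 reads). All 3 shPTN samples are above all 3 shCtrl samples. Ass1 rose by 0.40 (SE 0.11, 95% confidence interval 0.15 to 0.64, adjusted p 0.0268), to 132% of control. The call is a narrow one. It is lost without the filter (adjusted p 0.059), with plain eBayes (0.0763) and in 1 fit over all 24 samples (0.236), in 3 of 6 fits with a sample left out (0.112, 0.0522 and 0.0566) and at adjusted p < 0.01, and is kept in 9 of 16 alternatives.

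In E0771-LG cells Ass1 reads 7.34, 6.94 and 7.13 against 7.04, 7.06 and 6.99, within the same range (−0.11, SE 0.112, adjusted p 0.456). The difference between lines in the Ass1 response is −0.50 (SE 0.164, adjusted p 0.0277), a call kept in 12 of 22 alternatives. Ass1 thus responded in E0771 and not in E0771-LG by the tests used, with the weakest evidence of the genes called. In tumors Ass1 did not separate: 4T1 reads 4.76, 5.02 and 4.98 against 4.88, 5.06 and 4.06, and MMTV-PyMT 7.07, 7.20 and 6.94 against 7.0, 7.05 and 6.46 (−0.23, adjusted p 1).

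Odc1 (ENSMUSG00000011179, chr12:17544794-17551505, plus strand) turns ornithine into putrescine. In E0771-LG it reads 11.93, 11.28 and 11.33 log2 CPM with shCtrl and 10.43, 10.41 and 10.46 with shPTN (47783 to 67511 against 24589 to 29190 reads). Every shPTN sample is below every shCtrl sample, and the 3 shPTN samples are nearly equal. Odc1 fell by 1.08 (SE 0.158, 95% confidence interval −1.44 to −0.71, adjusted p 0.00101), to 47.4% of control, and it held in all 16 alternatives. Its fall is the largest of any arginine gene in E0771-LG.

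In E0771 Odc1 reads 10.57, 11.35 and 11.01 with shCtrl and 10.69, 10.53 and 10.53 with shPTN. The groups overlap at the lowest shCtrl sample, and the difference is −0.39 (SE 0.164, adjusted p 0.123). Leaving out that sample gives −0.59 with adjusted p 0.0111, so the Odc1 result in E0771 turns on a single control. The difference between lines is −0.68 (SE 0.262, adjusted p 0.0605), not called here and called with other scalings (adjusted p 0.0466 with median-of-ratios, 0.0092 with quantile normalization). In tumors Odc1 did not separate: 6.97, 6.61 and 6.31 against 6.42, 6.76 and 6.80 in 4T1 (0.03), and 5.88, 5.56 and 6.10 against 6.23, 5.56 and 6.57 in MMTV-PyMT (0.28, adjusted p 1).

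Slc7a1 (ENSMUSG00000041313, chr5:148327410-148399904, minus strand) encodes the arginine carrier CAT-1. In E0771-LG it reads 8.51, 8.30 and 8.37 log2 CPM with shCtrl and 7.47, 7.50 and 7.64 with shPTN (6153 to 6295 against 3274 to 3749 reads). The groups lie well apart with little spread inside either. Slc7a1 fell by 0.85 (SE 0.095, 95% confidence interval −1.06 to −0.64, adjusted p 9.74e-05), to 55.3% of control, and did so in all 16 alternatives. In E0771 it reads 8.26, 8.27 and 8.29 against 8.09, 8.51 and 8.28, with treated samples on both sides of the controls (0.02, SE 0.103, adjusted p 0.917).

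The 2 lines start from similar Slc7a1 levels and differ in response by −0.87 (SE 0.144, adjusted p 0.000549), a result held in all 22 alternatives. Of the cell lines, Slc7a1 thus fell in E0771-LG alone. In tumors Slc7a1 groups overlap: 5.03, 4.92 and 4.24 against 4.08, 4.67 and 4.74 in 4T1 (−0.24, with −0.48 and groups apart without the C44 tumor at 4.24, and −0.03 without the 3B10 tumor at 4.08), and 5.93, 5.75 and 6.01 against 5.83, 5.81 and 5.76 in MMTV-PyMT (−0.10, adjusted p 1).

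Slc7a2 (ENSMUSG00000031596, chr8:40862396-40922308, plus strand) encodes CAT-2, the carrier that macrophages induce together with iNOS. In 4T1 tumors it reads 2.80, 3.15 and 1.47 with C44 and 2.24, 1.81 and 1.19 with 3B10, which overlap (−0.73). Without the C44 tumor at 1.47 the Slc7a2 groups are apart, with a difference of −1.23, while it shrinks to −0.39 without the C44 tumor at 3.15 and to −0.45 without the 3B10 tumor at 1.19. The C44 tumor at 1.47 also has the lowest Nos2, Slc7a1 and Ddah1 of its group. In MMTV-PyMT tumors Slc7a2 reads 4.89, 5.64 and 4.19 against 4.59, 3.91 and 3.39 (−0.95, SE 0.426, unadjusted p 0.0604, adjusted p 1), again overlapping, and −0.58 without the C44 tumor at 5.64. Both cell lines have 0 to 2 Slc7a2 reads, so Slc7a2 RNA was near absent from the cultured carcinoma cells, which do express Slc7a1.

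Ddah1 (ENSMUSG00000028194, chr3:145758675-145894277, plus strand) breaks down asymmetric dimethylarginine, which inhibits nitric oxide synthases. In E0771 it reads 4.81, 5.09 and 4.69 log2 CPM with shCtrl and 5.30, 5.73 and 5.48 with shPTN (428 to 693 against 697 to 958 reads). In E0771-LG it reads 4.47, 4.26 and 4.52 against 3.83, 3.75 and 3.71 (376 to 427 against 227 to 299 reads). The groups are apart in each line, and in opposite directions. Ddah1 rose by 0.64 in E0771 (SE 0.143, 95% confidence interval 0.33 to 0.96, adjusted p 0.0101), to 156% of control. It fell by 0.66 in E0771-LG (SE 0.145, 95% confidence interval −0.97 to −0.34, adjusted p 0.00406), to 63.5%.

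The difference in response is −1.30 (SE 0.199, 95% confidence interval −1.72 to −0.88, adjusted p 0.00034), held in all 22 alternatives. Among the arginine genes called for a difference between lines, Ddah1 has the largest. Ddah2 has a larger estimate from few reads (2.32, adjusted p 0.226). In MMTV-PyMT tumors Ddah1 reads 6.57, 5.64 and 6.80 with C44 and 5.17, 5.16 and 5.21 with 3B10 (961 to 2087 against 586 to 658 reads). All treated tumors are below all controls and close to equal, with means of 6.34 ± 0.61 and 5.18 ± 0.03. The difference is −1.16 (SE 0.281, 95% confidence interval −1.81 to −0.50, unadjusted p 0.00377), or 44.9% of control, but adjusted p is 1 over all genes. In 4T1 tumors Ddah1 reads 3.93, 4.26 and 3.31 against 3.58, 4.67 and 4.12 and does not separate.

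Ddah2 (ENSMUSG00000007039, chr17:35059035-35062095, plus strand) encodes the related protein of vessels and immune cells. In 4T1 tumors it reads 7.60, 7.63 and 7.74 with C44 and 8.0, 7.75 and 8.15 with 3B10. The groups are apart by the narrowest of margins, with means of 7.66 ± 0.07 and 7.97 ± 0.20, a difference of 0.31 (124% of control). They overlap with median-of-ratios scaling and with quantile normalization. In MMTV-PyMT tumors Ddah2 reads 7.48, 6.92 and 6.35 against 7.46, 6.82 and 6.88 (0.13, adjusted p 1). The cell lines hold 0 to 25 Ddah2 reads, with E0771 at 0.32, 0.07 and −0.53 against 0.40, −1.71 and −0.44 (−0.54, adjusted p 0.559). Ddah2 is thus a tumor transcript in these samples, and its higher level with 3B10 in 4T1 tumors is a small difference.

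Which arginine genes are most abundant is asked within one experiment, per length of exon where the scale is known. In 4T1 control tumors, whose values run lower for long genes on a scale that is not known, the values as deposited put Ddah2 first (7.66 ± 0.07), followed by Odc1 (6.63 ± 0.33) and Ass1 (4.92 ± 0.14), and Slc7a2 is last (2.47 ± 0.88). In MMTV-PyMT control tumors, as log2 CPM per kilobase, Ddah2 (6.25 ± 0.57), Ass1 (5.80 ± 0.13) and Ddah1 (4.34 ± 0.61) lead and Nos2 is last (−2.0 ± 0.36). In control cells Odc1 leads in both lines per kilobase (9.21 ± 0.39 in E0771, 9.74 ± 0.36 in E0771-LG), then Ass1 (6.20 ± 0.16 and 5.87 ± 0.20) and Slc7a1 (4.75 ± 0.02 and 4.86 ± 0.11). Ddah2 thus has the highest mean per kilobase in MMTV-PyMT controls, but its samples overlap those of Ass1 (5.68 to 6.81 against 5.67 to 5.93). As log2 CPM without length, Ass1 (7.07) is above Ddah2 (6.92) there. In 4T1 controls Ddah2 is first on their own scale, and in the cultured lines Odc1 is first. Ass1 comes next in MMTV-PyMT controls and in both lines, so its place does not set the lines apart from those tumors. Nos2 in E0771-LG controls (2.22 ± 0.85) is close to Ddah1 (2.42 ± 0.14) per kilobase.

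The genes around these were read as 10 lists drawn up from general knowledge, with 104 genes listed and 75 in the table. In E0771 cells 13 of 59 tested were called, 10 lower and 3 higher, against 20.6% of all genes. In E0771-LG 29 of 61 were called, 12 lower and 17 higher, against 46.4%. The lists as a body are thus called about as often as any genes. The balance of their directions was not tested. In MMTV-PyMT tumors limma called 0 of 70, and in 4T1 tumors 72 passed the filter, with 7 apart lower and 7 apart higher, where 4.42% and 6.87% of all genes are.

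The urea cycle and ornithine carriers list gave 1 lower of 4 in E0771 and 2 lower and 1 higher of 4 in E0771-LG. Shares called over all genes are 20.6% in E0771 and 46.4% in E0771-LG. Slc25a15, the mitochondrial ornithine carrier, fell in both lines (−0.67, adjusted p 0.00239, and −0.73, adjusted p 0.00362). Asl, the enzyme after Ass1, rose in E0771-LG only (0.94, adjusted p 0.00442) and Slc25a13 fell there (−0.54, adjusted p 0.0038). The ornithine, proline and glutamate list gave 2 lower and 2 higher of 6 in E0771 and 1 higher of 6 in E0771-LG. Aldh4a1 rose in both lines (0.62, adjusted p 0.0101, and 0.83, adjusted p 0.026). In E0771 Aldh18a1 fell by 0.43 (adjusted p 0.00636) and Pycr1 by 0.70 (adjusted p 0.0158, kept in 12 of 16 alternatives). Oat rose there by 0.34 (adjusted p 0.0107, kept in 13 of 16 alternatives). The Aldh4a1 call in E0771-LG is kept in 10 of 16 alternatives. Slc25a15 and Aldh4a1 were thus called in the same direction in both lines, and of the ornithine, proline and glutamate genes only Pycr1 was called for a difference between lines, a call kept in 16 of 22 alternatives.

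The polyamines list gave 1 lower of 14 in E0771 and 2 lower and 7 higher of 14 in E0771-LG. All genes were called at 20.6% in E0771, and in E0771-LG at 22.1% lower and 24.3% higher. In E0771-LG the fall of Odc1 came with higher Smox (0.56, adjusted p 0.00866), Dohh (0.54, adjusted p 0.00383) and Sat1 (0.46, adjusted p 0.00681). Atp13a3, a polyamine importer, was lower (−0.67, adjusted p 0.000529). Azin2, a protein that frees Odc1 protein from its inhibitor, is counted among the 7 higher, at 3.22. It passed the filter there only through its shPTN samples (controls −3.53 to −0.34, shPTN 0.58 to 1.81 log2 CPM). The size of its change is uncertain, and its call is not used as support. The estimate runs from 1.37 to 4.04 over the alternatives. Sat1, which acetylates polyamines for export, instead fell in E0771 (−0.55, adjusted p 0.00992). Beside the fall of Odc1, the list thus moved in both directions in E0771-LG, and 5 of its 14 genes were not called. With 46.4% of all genes called there, the count was not tested and is not read as a trait of the list.

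The nitric oxide and tetrahydrobiopterin list gave 1 lower of 6 in E0771 and 2 higher of 7 in E0771-LG. Beside these stand 20.6% of all genes called in E0771 and 46.4% in E0771-LG. Gch1, the first step of the iNOS cofactor, fell in E0771 (−1.20, adjusted p 0.0159, kept in 13 of 16 alternatives). In E0771-LG Pts, the next step, rose (0.97, adjusted p 0.0037), as did Nostrin (1.32, adjusted p 0.00141). The arginine methylation list gave 0 of 7 in E0771 and 1 lower of 7 in E0771-LG, Carm1 (−0.71, adjusted p 0.000538). The cationic amino acid carriers list gave 0 of 3 in E0771 and 1 lower of 3 in E0771-LG, Slc7a6 (−1.08, adjusted p 0.000192), which fell beside Slc7a1. RNA for a pair of cationic amino acid carriers thus fell in E0771-LG.

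The creatine and agmatine list gave 1 lower and 1 higher of 5 in E0771 and 2 higher of 4 in E0771-LG. For this list and the next, the shares over all genes are 20.6% in E0771 and 46.4% in E0771-LG. Ckb rose in both lines (1.07, adjusted p 0.00297, and 1.0, adjusted p 0.041), though in E0771-LG its groups overlap and the call is kept in 9 of 16 alternatives. Gamt rose in E0771-LG (0.87, adjusted p 0.00813). The amino acid response list, which holds targets of Atf4, gave 3 lower of 11 in E0771 and 3 lower and 4 higher of 11 in E0771-LG. Slc7a11 fell in both lines (−0.82, adjusted p 0.00601, and −0.81, adjusted p 0.00319), and so did Slc7a5 (−0.30, adjusted p 0.0296, and −0.77, adjusted p 0.000151), whose E0771 call is kept in 8 of 16 alternatives. Atf4 fell in E0771 (−0.30, adjusted p 0.023, kept in 9 of 16 alternatives) and rose in E0771-LG (0.76, adjusted p 0.000294), where Ddit3 (1.28, adjusted p 0.00453) and Chac1 (1.09, adjusted p 0.00275) rose too. In E0771-LG the carriers Slc7a11 and Slc7a5 thus fell while Ddit3 and Chac1 rose.

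The alternative activation list gave 0 of 1 in E0771 and 2 lower of 2 in E0771-LG (Mrc1 −0.81, adjusted p 0.0406; Il4ra −0.36, adjusted p 0.047), calls kept in 9 and 8 of 16 alternatives. The classical activation list gave 1 lower of 2 in E0771 (Cxcl10 −1.12, adjusted p 0.01) and 1 lower of 3 in E0771-LG (Ptgs2 −2.43, adjusted p 2.23e-05). Most genes of these lists belong to macrophages and were below the filter in cells. Over all genes 20.6% were called in E0771 and 46.4% in E0771-LG.

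**Figure D3:**
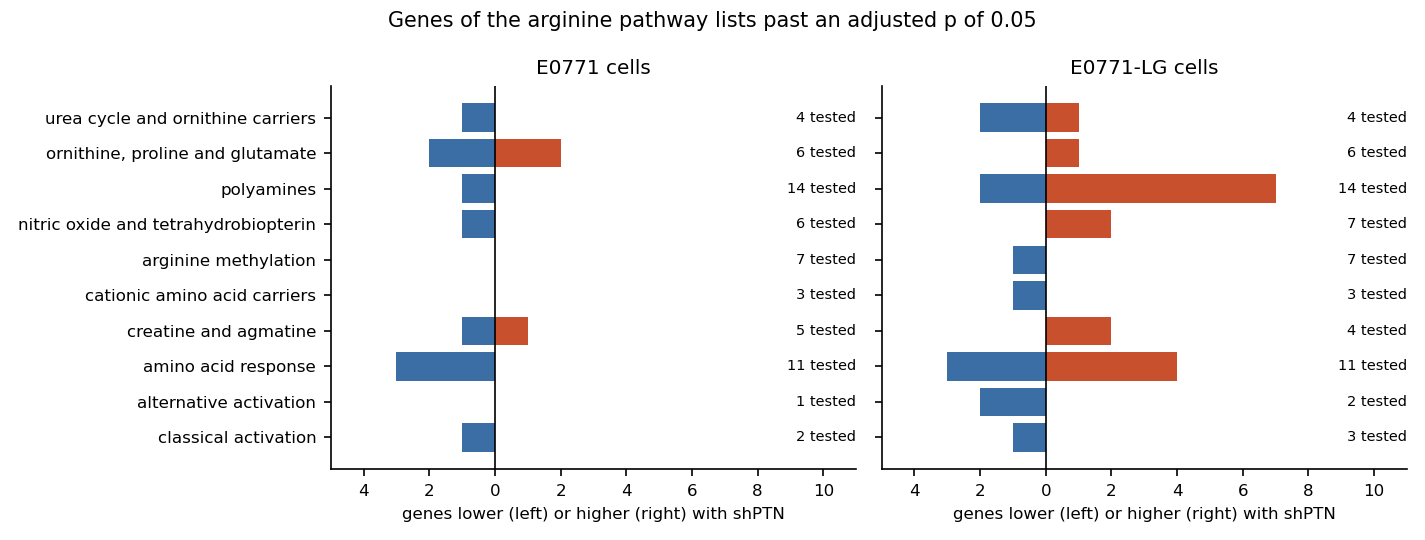
Genes called at adjusted p < 0.05 in each pathway list with Ptn knockdown, lower to the left and higher to the right, with the number tested, in E0771 and E0771-LG cells.

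For most lists the bars of called genes are longer in E0771-LG, where 46.4% of all genes were called against 20.6% in E0771. The ornithine, proline and glutamate list goes the other way, with 2 lower and 2 higher in E0771 against 1 higher in E0771-LG. The creatine and agmatine and the classical activation lists have equal totals in the lines. Polyamines and the amino acid response have calls on both sides in E0771-LG, while in E0771 their calls are few and lower. Tested directly, 21 of 62 genes differ between lines in the knockdown effect (7 lower and 14 higher in E0771-LG), against 3597 of 10576 genes (34%). The lists as a body thus differ between lines no more often than all genes do. The arginine genes give 3 of 6: Ddah1, Slc7a1 and Ass1, all lower. Between the control lines 39 of 62 differ, 17 lower and 22 higher, against 58% of all genes (37.4% lower and 20.6% higher), with directions that depend on scaling as said above.

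**Figure D4:**
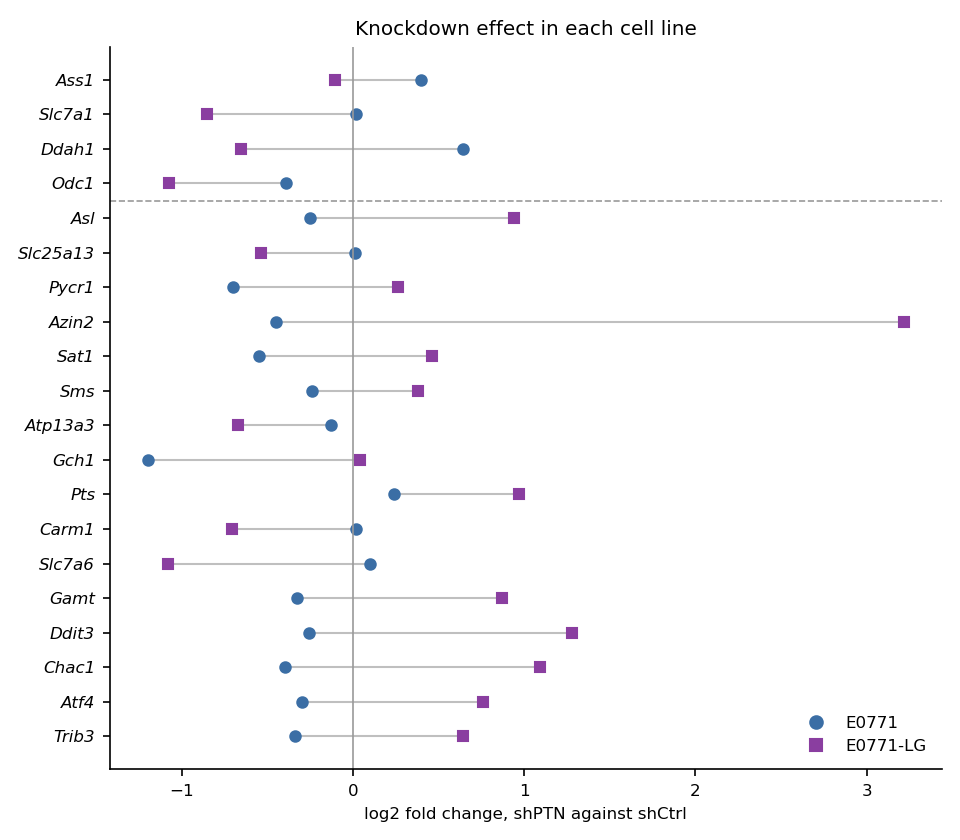
Effect of Ptn knockdown (log2) in E0771 (circles) and E0771-LG (squares) for arginine genes above the dashed line and for pathway genes below it.

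The paired circles and squares show the size of the disagreement for single genes. Sat1 is at −0.55 in E0771 and 0.46 in E0771-LG (difference 1.02, adjusted p 0.000667), and Atf4 is at −0.30 and 0.76 (difference 1.06, adjusted p 9.01e-05). Slc7a6 is at 0.10 and −1.08 (difference −1.17, adjusted p 0.000213), close to the pattern of Slc7a1. Azin2 is at −0.45 and 3.22, and Ddit3 at −0.26 and 1.28. Slc7a6 thus fell and Ddit3 rose in E0771-LG, and neither was called in E0771.

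In 4T1 tumors the lists that lean furthest are those of macrophage activation. The median difference is −0.73 for alternative activation (6 of 7 genes below 0, 3 apart and lower) and −0.41 for classical activation (5 of 6 below 0, 2 apart and lower), against 0.01 for all genes, of which 4.42% are apart and lower. Ccl24 (−0.90) and Il1b (−1.0) are apart, while Pdcd1lg2 (−1.57) and Cxcl9 (−0.59) overlap. The other medians are near 0: urea cycle 0.04, ornithine, proline and glutamate 0.02, polyamines 0.07, nitric oxide 0.12, methylation 0.13, carriers −0.07, creatine 0.19 and amino acid response −0.09. Both activation lists have medians below 0 with 3B10, in tumors where leukocyte markers are lower too, and neither list was tested. In MMTV-PyMT tumors the medians are −0.23 and −0.43 for the activation lists, with only 4 genes of each past the filter.

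The mix of cells in a tumor bears on these differences, since in bulk samples fewer cells of a type and less RNA per cell cannot be told apart. Marker lists for 8 cell types were summed in each tumor. In 4T1 tumors the leukocyte sum is 2640, 2450 and 2610 with C44 and 1970, 2130 and 1640 with 3B10, apart and lower, with all 9 markers below 0 and a log2 difference of −0.43. The macrophage sum is 12800, 9840 and 12200 against 5640, 10000 and 6240, overlapping, with a log2 difference of −0.71 and 10 of 11 markers below 0 (Lyz2 is the most abundant). The neutrophil sum is 1220, 1250 and 2010 against 1260, 1000 and 836, overlapping, with a log2 difference of −0.51 and 8 of 9 markers below 0 (S100a9 is the most abundant). Summed RNA of leukocyte markers is thus lower in 4T1 tumors with 3B10.

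**Figure D5:**
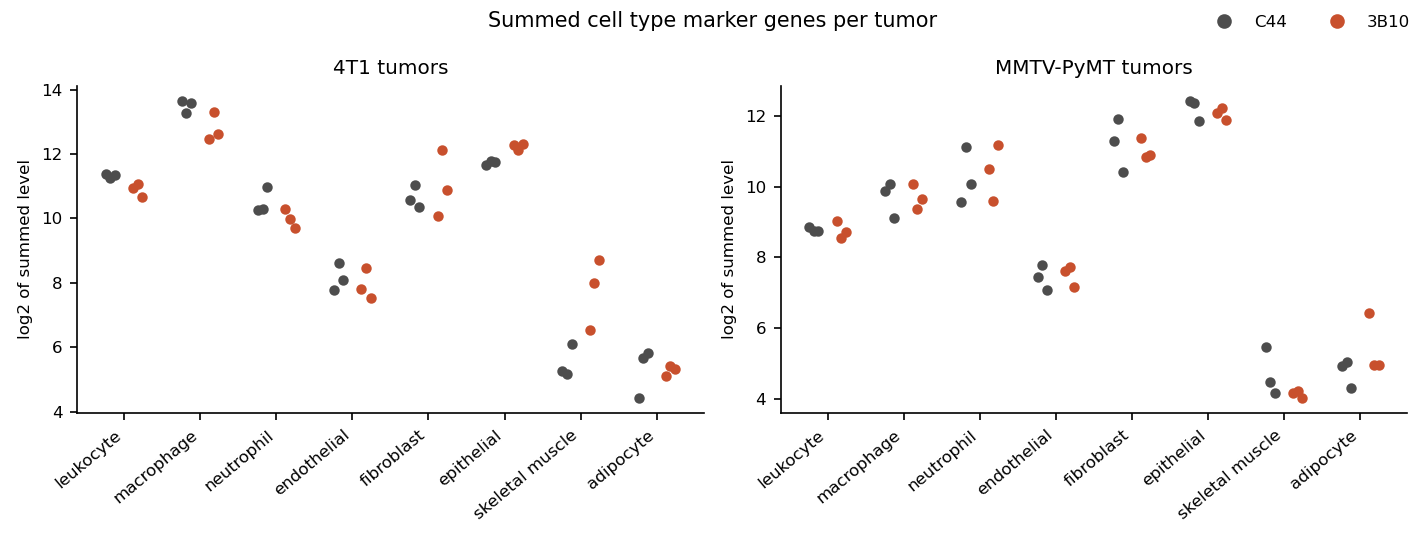
Summed markers of 8 cell types in each 4T1 and MMTV-PyMT tumor, C44 against 3B10.

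The other marker sums also differ in 4T1 tumors. Epithelial markers are 3220, 3490 and 3470 against 4970, 4510 and 5120, apart and higher (0.52), and skeletal muscle markers 34.7, 32.2 and 64.8 against 89.2, 251 and 414 (2.24), apart and higher. Endothelial (−0.24), fibroblast (0.38) and adipocyte (−0.03) sums overlap. Treated 4T1 samples thus carried more RNA of epithelial and muscle markers and less of leukocyte markers. These shifts stand beside the higher Ddah2 and the lower activation genes, and their part in the result was not tested.

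In MMTV-PyMT tumors every marker sum overlaps between groups: leukocyte −0.01, macrophage 0.01, neutrophil 0.18, endothelial 0.07, fibroblast −0.16, epithelial −0.15, skeletal muscle −0.57 and adipocyte 0.69. The neutrophil sum there is almost all Ltf (9.49 of a log2 sum of 9.56 in C44 replicate 1). Ngp, Camp and Retnlg were below the filter, so the 0.18 describes Ltf rather than the list. All 8 fibroblast markers are below 0 there. The part of cell mix in the Ddah1 estimate of −1.16 was not tested. In the cultured lines the leukocyte markers Ptprc, Cd53, Tyrobp, Fcer1g and Cd52 were below the filter, with Tyrobp at 0 reads in every sample. The macrophage markers C1qa, C1qc and Ms4a7 were at 0 reads in both lines. In each line 4 of the 9 leukocyte markers did pass, led by Itgb2 in E0771 and Lcp1 in E0771-LG.

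Marker sums also moved with knockdown in the cells. The leukocyte sum is apart and higher with shPTN in E0771 (0.96, with 0 of 4 tested markers below 0) and in E0771-LG (0.29, with 1 of 4 below 0). The macrophage sum is apart and higher in E0771 (0.78), but 2 of its 4 tested markers are below 0 and the median is 0.08 (Lyz2 is the most abundant). The fibroblast sum is apart and higher in E0771 (1.87), with 5 of 5 tested markers called against 20.6% of all genes. It is apart and lower in E0771-LG (−0.77, with 4 of 6 below 0). In E0771-LG the epithelial sum is apart and higher (1.51, with 0 of 3 tested markers below 0). The neutrophil (−1.10), endothelial (−0.41) and adipocyte (−0.92) sums are apart and lower there. Of their tested markers only 1 of 2, 2 of 4 and 1 of 2 are below 0, so the members of these lists go both ways. Some of these sums are mostly single genes. In E0771-LG shCtrl replicate 1, Mmp9 is at 4.27 of a neutrophil log2 sum of 4.48. In the same sample Eng is at 7.80 of an endothelial sum of 7.87, and Krt8 at 7.16 of an epithelial sum of 7.31. The changes of Ass1, Odc1, Slc7a1 and Ddah1 in cells thus came with changes in sums of cell type markers. Whether these are linked was not tested.

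Finally, genes were ranked by how their levels follow each arginine gene across the 12 tumors (10889 genes) or the 12 cell samples (10222 genes), with the mean of each model or line removed. The treatment difference is kept in these levels, so r is a description and reflects treatment as well as sample-to-sample spread. Across tumors Nos2 follows Apol6 (r 0.91), Hdac5 (0.85) and Tctn1 (0.83). The other arginine genes are at 0.66 (Slc7a2), 0.41 (Ass1), 0.25 (Slc7a1), 0.07 (Ddah1), 0.01 (Ddah2) and −0.17 (Odc1). The 4T1 tumors enter these r values on their own scale.

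Across cell samples Odc1 follows Styx (r 0.99), Sgms1 (0.98) and Fyttd1 (0.97), with Slc7a1 at 0.80. Slc7a1 follows Carm1, Atp2a2 and Foxk2 (each 0.98), with Ddah1 at 0.71. Ddah1 follows Crim1 (0.97), Ccnd2 (0.96) and Stk35 (0.96), and Ass1 follows Slc25a5 (0.92), Gemin7 (0.92) and Ap4s1 (0.91). For Carm1 and Slc7a1, r restates that both fell in E0771-LG and not in E0771. Of the arginine genes, then, Odc1, Slc7a1 and Ddah1 fell in E0771-LG cells, Ddah1 and Ass1 rose in E0771 cells, and none passed the test in MMTV-PyMT tumors.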

How the data were processed

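The submitters' notes say that reads were aligned to mm10 (GRCm38) with HISAT2 and counted with featureCounts, and that edgeR and limma were used from there. The values used here are the log2 table deposited by the authors, with 12091 genes. In 18 samples they are log2 CPM after 0.5 reads were added to each count (whole reads were taken within 0.01), and depth was recovered from them (15.63 to 21.12 M reads, median 18.25 M). The 6 4T1 samples are on another scale, with lower values for long genes and unknown depth, and the arginine genes are described there sample by sample. limma on the 4T1 tumors, with the 7 arginine genes included, called 0 of 11467 genes (719 at unadjusted p < 0.05). edgeR on counts had been planned and was not used; limma was run on the log2 values of the table. Reads recovered for the 18 samples entered only the voom alternative.

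After undoing the log and subtracting each sample's minimum, a gene was kept in an experiment if 3 or more of its 6 samples reached 1. Each experiment was fitted with limma (lmFit, then eBayes with trend and robust) and p-values were adjusted by Benjamini-Hochberg over all genes kept, with adjusted p < 0.05 taken as called. The difference between lines and the control lines were fitted over 12 cell samples with genes kept in either line. Intervals are 95% confidence intervals from limma.

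The arginine genes and all lists were chosen with earlier results of these data known, and some genes of each are not reported here. The pathway lists, from general knowledge, are urea cycle and ornithine carriers; ornithine, proline and glutamate; polyamines; nitric oxide and tetrahydrobiopterin; arginine methylation; cationic amino acid carriers; creatine and agmatine; amino acid response; alternative activation; and classical activation. The marker lists are leukocyte, macrophage, neutrophil, endothelial, fibroblast, epithelial, skeletal muscle and adipocyte, summed off the log above the lowest value. From each list the 4 called genes with the largest change at most are named, or 2 with values only where none was called, besides genes named for contrast between lines. Positions and exon lengths are from GENCODE M21, which matched 12091 of 12091 genes, and promoters from RefSeq. Tools were R 4.3.3, limma 3.58.1, Python 3.11.15, numpy 2.4.6, pandas 2.3.3, scipy 1.17.1 and matplotlib 3.10.9.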

Additional observations from a re-analysis of the deposited data

Results flagged for a closer look

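The effect of Ptn knockdown on several genes depends on the line, and the values below are the E0771-LG effect minus the E0771 effect (log2, limma, adjusted over 10576 genes). The E0771 and E0771-LG samples were selected and grown as separate populations from a single construct per target, so a line effect and a population effect cannot be told apart. The cause was not tested.

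Among the arginine genes the differences are −1.30 for Ddah1 (adjusted p 0.00034), −0.87 for Slc7a1 (adjusted p 0.000549) and −0.50 for Ass1 (adjusted p 0.0277). The Ass1 call is kept in 12 of 22 alternatives (adjusted p up to 0.194), those of Ddah1 and Slc7a1 in all 22. Each is lower in E0771-LG, and Ddah1 is the one arginine gene called in both lines with opposite signs. Sat1 and Atf4 of the lists below are also called in both with opposite signs.

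Among urea cycle, proline and polyamine genes, Asl differs by 1.19 (adjusted p 0.00315), Slc25a13 by −0.55 (0.0101) and Pycr1 by 0.96 (0.0206). The Pycr1 call is kept in 16 of 22 alternatives and is lost at adjusted p < 0.01, in the fit over all 24 samples (0.114) and in 4 fits with a sample left out (0.0513 to 0.0593). Sat1 differs by 1.02 (0.000667), Sms by 0.62 (0.00293) and Atp13a3 by −0.54 (0.00908). Azin2 differs by 3.67, and by 1.74 to 4.48 over the alternatives. In E0771-LG Azin2 passed the filter only through its shPTN samples, so the size is uncertain and its call is not used as support. Of the 14 polyamine genes tested, 4 (Azin2 included) were called relatively higher in E0771-LG and 1 lower, close to the 34% of all genes called for such a difference.

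Gch1 (1.24, adjusted p 0.0259) and Pts (0.73, 0.0389), the successive steps to the iNOS cofactor, are both relatively higher in E0771-LG, but the Pts call is kept in only 9 of 22 alternatives (lowest estimate 0.40) and the Gch1 call in 16. Carm1 (−0.73, 0.00163) and the carrier Slc7a6 (−1.17, 0.000213) are relatively lower, and Gamt is relatively higher (1.20, 0.00706).

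Of the amino acid response genes, Ddit3 (1.54, adjusted p 0.0055), Chac1 (1.49, 0.00284), Atf4 (1.06, 9.01e-05) and Trib3 (0.98, 0.00356) are relatively higher in E0771-LG. Over that list 5 of 11 genes were called relatively higher and 2 lower, against 34% of all genes called in either direction. Ptgs2 gives −5.42, and −6.11 to −2.75 over the alternatives. It is below the filter in E0771 and entered this comparison through E0771-LG. The size of the Ptgs2 difference thus depends on values near the floor in E0771, and its call is not used as support. The E0771-LG fall by itself is −2.43.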

How the results depend on the processing

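The alternatives were the filter, scaling (median-of-ratios, quantile), eBayes without trend and robust (both dropped together), voom, a pseudocount, replicate as a block, a fit over all 24 samples, adjusted p < 0.01, and leaving out 1 sample. voom was not run for 4T1. In E0771-LG the calls of Odc1 and Slc7a1 and, between lines, those of Ddah1 and Slc7a1 held throughout. The Ddah1 call in E0771-LG was lost in the fit over all 24 samples (adjusted p 0.0568), where 2 arginine genes and 20 pathway genes were called in E0771-LG instead of 3 and 29.

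The 2 arginine genes called in E0771 became 1 without the filter, 1 with plain eBayes, 0 in the fit over all 24 samples, 0 at adjusted p < 0.01, and 1 to 3 with a sample left out. The 13 pathway genes called in E0771 became 5 in the fit over all 24, 6 at adjusted p < 0.01, and 8 to 16 with a sample left out. The 4 arginine genes called between control lines became 2 in the fit over all 24, 1 at adjusted p < 0.01, and 2 to 4 with a sample left out. The 1 arginine gene apart in 4T1 tumors (Ddah2) became 0 with median-of-ratios scaling, 0 with quantile normalization and 1 to 3 with a tumor left out. The E0771 calls are thus the least firm, and the cause was not tested.

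Some differences that passed no test changed sign. In 4T1 tumors Ass1 became 0.05 without 3B10 replicate 3, and Odc1 became −0.02 and −0.04 without 3B10 replicates 2 and 3 and −0.13 without C44 replicate 3. In MMTV-PyMT tumors Nos2 became 0.03 with the pseudocount and 0.74 without 3B10 replicate 3, and Ddah2 became −0.07 without 3B10 replicate 1 and −0.15 without C44 replicate 3. In E0771, Slc7a1 became −0.01 with quantile normalization and −0.09 without shPTN replicate 2, and Ddah2 became 0.03 without shPTN replicate 2.

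Between lines the Nos2 effect became −0.53 with the pseudocount, −0.18 without E0771-LG shPTN replicate 2 and −0.52 without E0771 shPTN replicate 1.

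With single samples left out, these differences ran from −1.08 to 0.74 (Nos2) and −0.15 to 0.42 (Ddah2) in MMTV-PyMT, −0.09 to 0.12 (Slc7a1) and −1.03 to 0.03 (Ddah2) in E0771, and −0.52 to 0.94 for Nos2 between lines. None of them has a direction these data can fix.

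The values do not establish that samples with the same replicate number belong together (mean r of paired residuals 0.101 for MMTV-PyMT, 0.0927 for E0771-LG, 0.0257 for E0771 and −0.048 for 4T1, with no experiment above 0.1 for every pair). With replicate as a block, 4 arginine genes were called in E0771-LG instead of 3, adding Nos2 (−0.91, adjusted p 0.0032).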
